A study of Arabidopsis thaliana with 12 samples.

Results

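Transcript levels of 3 Arabidopsis thaliana genes of nuclease and phosphatase families were compared between plants of the prors2 mutant and wild-type (WT) plants. The genes were AT3G15140, of the exonuclease family, AT3G14890, a DNA 3′-phosphatase, and AT1G11800, of the endonuclease/exonuclease/phosphatase family. They were chosen by the size of their log2 difference between the genotypes in these same samples, so that difference is described here and not tested. Each is read by 1 array feature that the platform's gene table assigns to that gene alone, 3 of the 692 features with a single gene and of the 3439 features in all. No feature shared by several genes names any of the 3.

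The prors2 group had 6 samples and the WT group had 6 samples, numbered 1 to 6 in each, and each of the 12 arrays carried total RNA of 1 sample. Both groups are of the Columbia 0 ecotype, and prors2 is described as a mutant that lacks prolyl-tRNA synthetase, the enzyme that joins proline to its transfer RNA. The sources used here give neither the allele nor the tissue, age or growth of the plants. Nothing in the labels ties each sample to plants of its own, and the spread between samples may therefore be technical. No single-gene feature reads the prolyl-tRNA synthetase loci AT5G52520 and AT3G62120, and 0 of 14 listed root, seed and senescence markers had one, so neither genotype nor tissue was checked at the transcript level.

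Exonucleases take nucleotides off the end of a DNA or RNA chain, and the family name alone does not say which of these a protein works on. A DNA 3′-phosphatase removes a phosphate left on the 3′ end of a broken DNA strand, which restores the hydroxyl group that a polymerase or ligase needs to close the gap. The endonuclease/exonuclease/phosphatase fold is shared by enzymes with very different substrates, among them DNA repair nucleases, enzymes that shorten the poly(A) tails of messenger RNA, and phosphatases of inositol lipids.

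The deposited values are relative intensities on a linear scale that ends at 100, with an unstated reference. The arrays of the groups differed as a whole. The median feature stood between 0.279 and 0.305 on the prors2 arrays and between 0.135 and 0.169 on the WT arrays. Between 262 and 316 features were at exactly 0 on a prors2 array, against 368 to 396 on a WT array. The summed intensity ran from 3107 to 3278 on prors2 arrays and from 2942 to 3167 on WT arrays. For this reason the log2 values were quantile-normalized, which gives every array the same distribution, with zeros treated as missing. The median log2 difference (prors2 minus WT) over the 3024 tested features was then 0.07, against 0.76 on the deposited values. Less RNA of a gene per cell and fewer cells that express it cannot be told apart in such samples.

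AT3G15140, the exonuclease family gene, stood in the middle of the array in prors2 and near its floor in WT. In prors2 samples 1 to 6 its deposited relative intensity was 0.256, 0.347, 0.378, 0.352, 0.365 and 0.374. In WT samples 1 to 6 it was 0, 0.0108, 0.0164, 0.0363, 0 and 0.0108. Every prors2 sample lay above every WT sample, and the lowest prors2 value was 7.06 times the highest WT value. The means were 0.346 ± 0.045 in prors2 and 0.0124 ± 0.013 in WT (SD, n = 6 each), so that the WT spread was as large as the WT level itself. Over all 3439 features, 34.1% had deposited values in which prors2 lay wholly above WT. That share is given as the background only, since the genes were picked for this contrast.

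How large the AT3G15140 difference is depends on how the zeros in WT samples 1 and 5 are treated, and also on the scaling and on any offset. The ratio of the group means was 27.9 when the zeros were counted as 0. It was 18.6 when the mean was taken over the 4 WT samples above 0, and the ratio of the medians was 33.2. After normalization, with the zeros missing, the mean log2 level was -1.94 ± 0.22 in 6 prors2 samples and -5.45 ± 0.69 in 4 WT samples, a log2 difference of 3.51. Without scaling, and with the zeros still missing, this difference was 4.40. An added offset of 0.0296, the 5th percentile of all positive values, lowered the normalized difference to 2.55. The offset was added to every value, so it also raised the WT values above 0. With the zeros set to the lowest positive value of the table, 5.72e-06, the normalized difference was 7.23. The direction was the same in each of these, in a gene chosen by this contrast, and the size is bounded poorly from above because the WT level is close to 0.

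AT3G14890, the DNA 3′-phosphatase gene, was also higher in prors2. Its deposited relative intensity in prors2 samples 1 to 6 was 0.208, 0.212, 0.305, 0.276, 0.303 and 0.213. In WT samples 1 to 6 it was 0.0238, 0, 0.0284, 0.0517, 0.0151 and 0.0267. The groups did not overlap, and the lowest prors2 value was 4.02 times the highest WT value. On the deposited scale prors2 lay wholly above WT in 34.1% of the 3439 features, given as the background only. The prors2 values fell into a lower trio (samples 1, 2 and 6) and a higher trio (samples 3, 4 and 5), while in WT sample 4 was the highest. The means were 0.253 ± 0.047 in prors2 and 0.0243 ± 0.017 in WT (SD, n = 6 each).

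Only WT sample 2 was listed at 0 for AT3G14890. The ratio of means was 10.4 with that zero counted and 8.67 over the 5 WT samples above 0, and the ratio of medians was 9.66. After normalization the mean log2 level was -2.45 ± 0.27 in 6 prors2 samples and -4.68 ± 0.54 in 5 WT samples, a log2 difference of 2.23. With the offset of 0.0296 the log2 difference was 1.65, and with the zero at the lowest positive value it was 4.12. The near-zero value filled in for that 1 WT array thus moved the fitted difference by more than the other scalings did, under which it lay between 2.38 and 3.21. The offset of 0.0296, which is added to every value, moved it by less than leaving out the scaling did.

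AT1G11800, the endonuclease/exonuclease/phosphatase family gene, ran the other way and had no zeros. Its deposited relative intensity in prors2 samples 1 to 6 was 0.159, 0.267, 0.250, 0.294, 0.261 and 0.302. In WT samples 1 to 6 it was 0.431, 0.579, 0.594, 0.606, 0.657 and 0.61. The groups did not overlap, and the lowest WT value was 1.43 times the highest prors2 value. The means were 0.255 ± 0.051 in prors2 and 0.580 ± 0.077 in WT (SD, n = 6 each), so WT was 2.27 times as high. Wholly lower deposited values in prors2 were found in 5.64% of the 3439 features, again given as the background only.

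With no zeros to treat, the AT1G11800 difference still depended on the scaling between arrays, as did those of AT3G15140 and AT3G14890. After quantile normalization its mean log2 level was -2.45 ± 0.33 in prors2 and -0.58 ± 0.21 in WT (SD, n = 6 each), a log2 difference of -1.87. On the deposited values it was -1.20, at equal array sums -1.27 and after median centring -2.03. The genes that were higher in prors2 differed more on the deposited values, AT3G15140 by 4.40 and AT3G14890 by 3.21. After normalization the share of the 3024 tested features with no overlap was 16.3% for prors2 above WT and 14.8% for prors2 below WT.

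**Figure D1:**
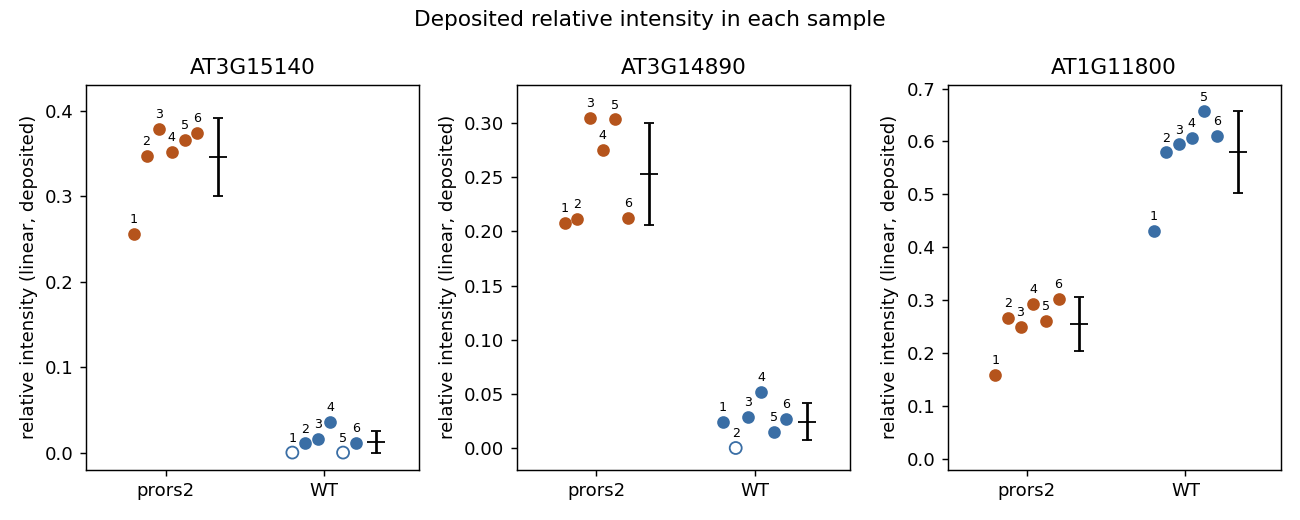
Deposited relative intensity (linear axis) of AT3G15140, AT3G14890 and AT1G11800 in 6 prors2 and 6 WT samples; each point is a sample with its number, open circles are values of exactly 0, and the bar is the mean with SD over 6 samples. The prors2 points lie above all WT points for AT3G15140 and AT3G14890 and below all of them for AT1G11800, and 3 WT values are at 0. Of the 3439 features, 34.1% had prors2 wholly above WT and 5.64% had it wholly below.

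**Figure D2:**
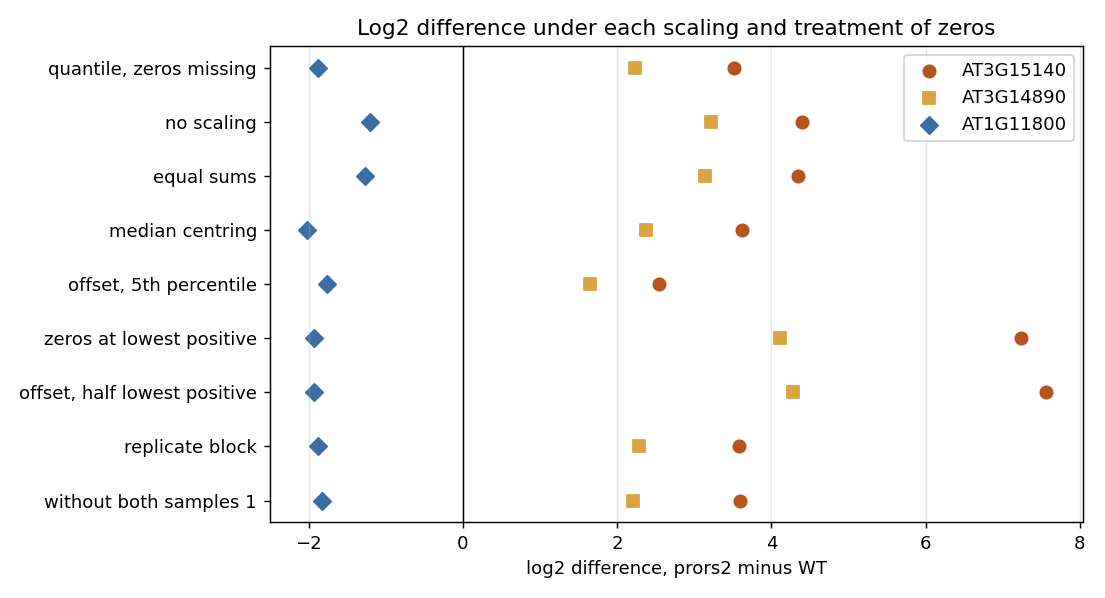
Log2 difference (prors2 minus WT) of the 3 genes under each scaling between arrays, each treatment of zeros, with replicate numbers as a block and without both samples numbered 1. No point changes side of 0, in genes that were chosen by this contrast. AT3G15140 spans 2.55 to 7.56 and AT1G11800 spans -2.03 to -1.20.

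The rank of a gene among the features of its own array needs no scaling. AT3G15140 lay at percentile 56.1 ± 4.8 in prors2 and 11.5 ± 4.8 in WT (SD, n = 6 each), where features at 0 share a rank near percentile 5.7. AT3G14890 lay at percentile 44.5 ± 6.1 in prors2 and 15.4 ± 5.4 in WT. AT1G11800 lay at percentile 44.6 ± 6.9 in prors2 and 82.0 ± 2.7 in WT. In prors2 the 3 features thus stood within the middle of the array, between percentiles 31.3 and 59.3, while in WT they stood at opposite ends. The upward shift of AT3G15140 by 44.6 percentile points was matched or passed by 14 of 3439 features, itself included. For AT3G14890, with 29.2 points, this was 69 features, and for the downward shift of AT1G11800, -37.4 points, it was 27 features. The genes were chosen by the same contrast between the genotypes, so these counts describe that choice.

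**Figure D3:**
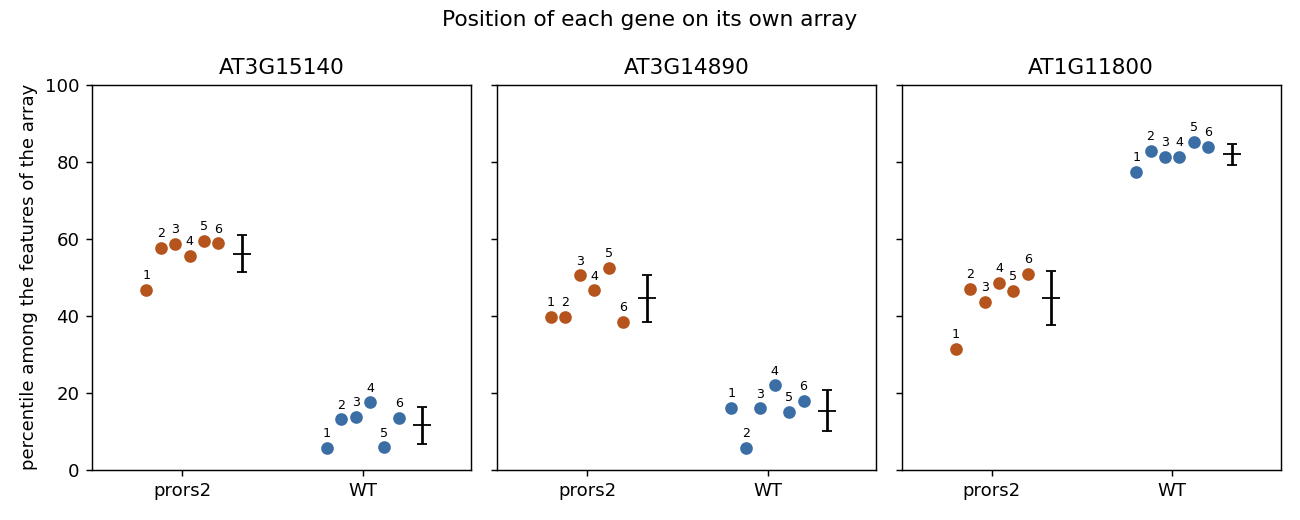
Percentile of each gene's feature among the 3439 features of the same array, in 6 prors2 and 6 WT samples; points are samples with their numbers and bars are means with SD. AT3G15140 and AT3G14890 sit under percentile 22 in every WT sample and above percentile 38 in every prors2 sample, while AT1G11800 sits above percentile 77 in every WT sample.

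By size of the normalized log2 difference, AT3G15140 ranked 1st among the positive differences of the 606 tested single-gene features and 6th among those of all 3024 tested features. AT3G14890 ranked 6th and 35th among the positive differences, and AT1G11800 ranked 9th and 62nd among the negative ones. These ranks describe how the genes came to be chosen.

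Samples with the same number were also set side by side. AT3G15140 was higher in prors2 in 6 of 6 numbers, but a ratio exists only for the 4 in which WT was above 0. There prors2 was 32.3, 23.0, 9.70 and 34.5 times WT, in numbers 2, 3, 4 and 6. The smallest of these ratios came from number 4, whose WT value was the highest. In numbers 1 and 5 WT was listed at 0, so no ratio is given, and the deposited differences were 0.256 and 0.365.

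AT3G14890 was also higher in 6 of 6 numbers. In numbers 1, 3, 4, 5 and 6 prors2 was 8.74, 10.7, 5.33, 20.1 and 7.96 times WT, and in number 2 WT was listed at 0 with a deposited difference of 0.212. Number 4 again gave the smallest ratio. AT1G11800 was lower in 6 of 6 numbers and much more even, with WT between 2.02 and 2.71 times prors2. The deposited differences (prors2 minus WT) varied little by comparison, at 0.333 ± 0.042 for AT3G15140, 0.228 ± 0.045 for AT3G14890 and -0.324 ± 0.042 for AT1G11800 (SD, n = 6 numbers). The ratios were thus far less even than the differences for the genes with WT values near 0.

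The differences were also taken within the sets of samples numbered 1 and 2, 3 and 4, and 5 and 6. AT3G15140 differed by 4.0, 3.10 and 3.90 on the normalized log2 scale, with 1, 2 and 1 WT samples above 0. AT3G14890 differed by 2.22, 2.08 and 2.50, with 1, 2 and 2 WT samples above 0. AT1G11800 differed by -2.01, -1.74 and -1.88 with no sample missing. The groups do not overlap in any of the 3 genes, so the direction within the numbers and sets was fixed by the choice of genes, and a difference that rests on 1 WT sample has no spread of its own.

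The spread within the groups was described as well. The pooled within-group SD of the normalized log2 level was 0.46 for AT3G15140, 0.41 for AT3G14890 and 0.28 for AT1G11800. Among the 605 tested features of the lowest mean level, which held both AT3G15140 and AT3G14890, the median SD was 0.85, and 8.6% had a smaller SD than AT3G15140 and 5.12% than AT3G14890. That level is the mean over both genotypes, and the 2 genes were dim in WT only. Their pooled SDs join a smaller SD in prors2 with a larger one in WT: 0.22 and 0.69 for AT3G15140, 0.27 and 0.54 for AT3G14890. The low shares therefore do not show that the 2 genes were steady where they were dim. Zeros are missing in these SDs, which makes them smaller for dim features. AT1G11800 was among 605 brighter features, the next to the brightest such set, where the median SD was 0.25 and 60.5% of features had a smaller SD. As deviations from the group means, AT3G15140 and AT3G14890 had Pearson r = 0.73 over the 9 samples in which both were above 0. AT1G11800 had r = 0.21 with AT3G15140 (10 samples) and r = -0.01 with AT3G14890 (11 samples). These are descriptions over few samples, which share their arrays, and without the samples numbered 1 they were 0.70, -0.33 and -0.63.

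AT3G14890 and AT3G15140 both lie on chromosome 3 and AT1G11800 lies on chromosome 1. Between AT3G14890 and AT3G15140 the TAIR10.1 reference lists 28 genes, 27 of them protein-coding, and 0 of these had a single-gene feature on the array.

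The genes with the most similar profile over the samples were found by Pearson correlation of the normalized log2 levels, among single-gene features with at least 10 shared samples above 0. Such correlations are dominated by the difference between the genotypes. For AT3G15140, with 523 features searched, they were AT3G09080 (r = 0.98), AT1G31790 (r = 0.97) and AT4G31930 (r = 0.97), each over 10 samples. For AT3G14890, with 569 searched, they were AT2G36920, PRA1.B6 (AT5G07110) and ATATH8 (AT2G39190), all with r = 0.96 over 11 samples. For AT1G11800, with 589 searched, they were AT1G21500 (r = 0.99), PSAN (AT5G64040), a subunit of photosystem I (r = 0.98), and AT1G74470 (r = 0.97), each over 12 samples. AT3G15140 and AT3G14890 shared only 9 samples above 0, so neither was searched for the other. Their r as deviations from the group means was 0.73.

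After subtraction of the group means, the deviations of AT1G21500 had r = 0.92 with those of AT1G11800 over the 12 samples, against 0.65 for PSAN and 0.49 for AT1G74470. Without both samples numbered 1, in which AT1G11800 was low, these were 0.63, 0.46 and -0.13 over 10 samples. The deposited level of AT1G21500 averaged 0.253 in prors2 and 0.933 in WT, a log2 difference of -2.50 after normalization. For AT3G15140 the corresponding within-group values were 0.65 for AT3G09080, 0.19 for AT1G31790 and 0.21 for AT4G31930. Without the samples numbered 1 they were 0.61, 0.24 and 0.56 over 9 samples. For AT3G14890 they were 0.54 for AT2G36920, 0.75 for PRA1.B6 and 0.49 for ATATH8, and 0.50, 0.73 and 0.64 over the 9 samples without number 1.

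Other genes for nucleases and DNA repair were looked up from 4 lists that held 102 loci beside these 3: single-strand break and base excision repair, double-strand break, mismatch and excision repair, organellar DNA maintenance, and RNA nucleases. Only 2 of the 102 had a single-gene feature, both were tested, and both rose in prors2, with 0 lower. Over all 3024 tested features limma called 47.2%, 24.8% higher and 22.4% lower, so that 2 genes say nothing about these pathways as a whole. The lists for double-strand break repair and for RNA nucleases had 0 measured genes, and a further RNA nuclease locus is read only by a feature shared with another gene.

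DME (AT5G04560) encodes DEMETER, a DNA glycosylase that excises 5-methylcytosine and so starts active DNA demethylation. This excision can leave a 3′-phosphate in the DNA, the kind of end on which a DNA 3′-phosphatase acts. The deposited relative intensity of DME had a lowest value of 0.275, a median of 0.317 and a highest of 0.432 in prors2, against 0.0759, 0.0836 and 0.128 in WT. No value was 0 and the groups did not overlap, as was the case for 34.1% of the 3439 features with prors2 wholly above WT. After normalization DME was higher in prors2 by 0.95 on the log2 scale (SE 0.19, limma adjusted p = 0.00121). WT samples 1 to 6 stood at 0.128, 0.125, 0.0774, 0.0759, 0.0831 and 0.0840, so neighbouring numbers lay close together. In prors2 they were 0.348, 0.286, 0.275, 0.432, 0.285 and 0.405, without such closeness. The fit counts every array as independent, and the labels do not say whether neighbouring samples share plants. The SE and adjusted p may therefore be too small, which was not tested.

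OSB1 (AT1G47720) encodes a single-stranded DNA-binding protein of mitochondria that limits recombination of the mitochondrial genome. Its deposited relative intensity had a lowest value of 0.261, a median of 0.282 and a highest of 0.349 in prors2, against 0.0370, 0.0890 and 0.154 in WT. The groups did not overlap on the deposited or the normalized scale. Over all features, prors2 lay wholly above WT in 34.1% on the deposited scale and in 16.3% of tested ones after normalization. On the normalized scale the OSB1 groups were barely apart, with prors2 sample 2 at -2.383 and WT sample 4 at -2.399. After normalization OSB1 was higher in prors2 by 0.95 (SE 0.31, limma adjusted p = 0.0252). WT samples 1 to 6 stood at 0.0370, 0.0472, 0.141, 0.154, 0.0695 and 0.108. The prors2 samples stood at 0.271, 0.261, 0.291, 0.330, 0.272 and 0.349. The limit given for DME, that arrays are counted as independent, holds for this SE and adjusted p too. The OSB1 call was lost without prors2 sample 6 (limma adjusted p = 0.0505), without WT sample 2 (limma adjusted p = 0.0532) and without both samples numbered 1 (limma adjusted p = 0.0582). On the deposited values DME and OSB1 differed by 1.84 and 1.86, which is more than 1.5 times their normalized differences.

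**Figure D4:**
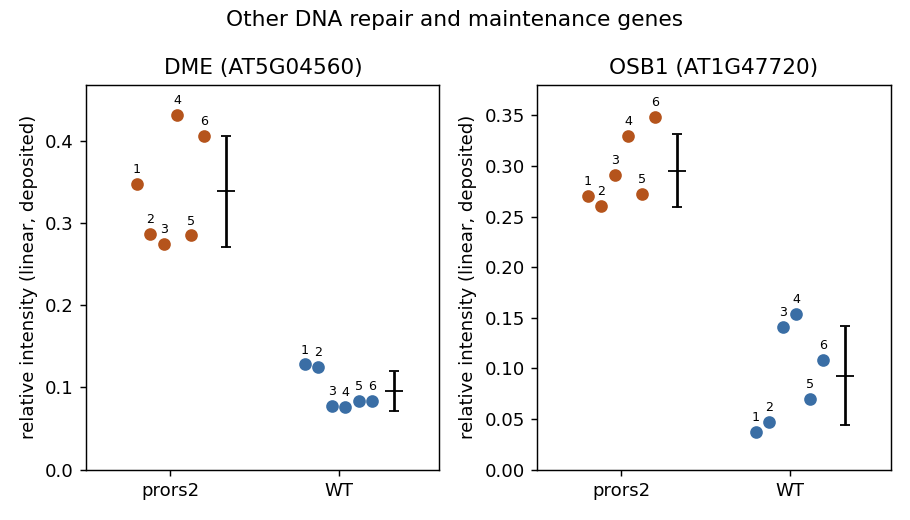
Deposited relative intensity (linear axis from 0) of DME and OSB1 in 6 prors2 and 6 WT samples; points are samples with their numbers and bars are means with SD. The prors2 samples lie above the WT samples in both genes, as in 34.1% of the 3439 features, and the WT values of OSB1 run from 0.0370 to 0.154.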

How the data were processed

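The deposited table holds relative intensities, 1 value for each feature in each sample. The reference of the authors' scale, the background correction, the software and the type of array are not stated. It held 0 value columns of other samples and no identical pair of columns. Genes, lists and tests were chosen with earlier results of these data known.

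Features were named through the platform's gene table, which may be old: 692 features had 1 gene, 870 several and 1877 none, and 691 of the 692 matched the TAIR10.1 reference gene table. Coordinates are left out since the array's build is unknown, and no sequences were used here. Zeros were set to missing, log2 values were quantile-normalized, and features with at least 4 of 6 values above 0 in each group were tested (3024, of which 606 had a single gene). The two-sided test was limma's (version 3.58.1 under R 4.3.3; lmFit, then eBayes), with genotype as the only term and Benjamini-Hochberg adjustment over the 3024 features at a threshold of 0.05. Genes whose folds involve missing values use the samples above 0.

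The rule for named genes takes the 3 genes, the measured genes of the nuclease and repair lists, and for each of the 3 the 3 single-gene features with the highest Pearson correlation. A search of reference symbols and synonyms for words such as nuclease or helicase matched 0 single-gene features; product descriptions were not used here.

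Replicate numbers were checked over 2654 complete features, and the correlation of deviations between same-numbered samples lay in the range 0.212 to 0.399. Among the samples of the other genotype, each of 12 samples was closest to the one of its own number. Samples of the same genotype were not compared in this check. The data thus pair the samples by number across the genotypes, though the labels do not say so. The main fit does not use this pairing, and the fit with a replicate block does. Alternatives were other scalings, other treatments of zeros, the replicate block, a filter on the dimmest 25% of features, a trend and robust fit, and leaving out samples. The number of arrays limits the precision.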

Additional observations from a re-analysis of the deposited data

Results flagged for a closer look

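In 5 genes and 10 groups of 6 samples, 3 values lay far from the rest of their group. Their gap to the nearest other sample was over 0.625 of the group's range, which chance gives in about 1 in 20 groups. All 3 came from samples numbered 1 and all were the lowest of their group. The flags of AT3G15140 and AT1G11800 in prors2 came from the same array, and samples of the same number deviated together. The 3 flags are therefore not separate events. AT3G15140 stood at 0.256 in prors2 sample 1. AT1G11800 stood at 0.159 in prors2 sample 1 and at 0.431 in WT sample 1. Without both samples numbered 1 the log2 differences were 3.59 for AT3G15140, 2.21 for AT3G14890 and -1.82 for AT1G11800.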

How the results depend on the processing

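The directions of AT3G15140, AT3G14890 and AT1G11800 were the same under every scaling, treatment of zeros and omission of a sample that was run, but their sizes were not. The genes were chosen by this contrast and their groups do not overlap, so the shared direction was largely fixed in advance. Without scaling and with equal sums the log2 differences were 4.40 and 4.34 for AT3G15140, 3.21 and 3.14 for AT3G14890, and -1.20 and -1.27 for AT1G11800. With zeros at the lowest positive value and with an offset of 2.86e-06, AT3G15140 differed by 7.23 and 7.56 and AT3G14890 by 4.12 and 4.28. With an offset of 0.0296, chosen after seeing the data as was the omission of both samples numbered 1, these genes differed by 2.55 and 1.65. Without any 1 sample AT3G15140 ranged from 3.28 to 3.83, AT3G14890 from 2.06 to 2.43 and AT1G11800 from -1.95 to -1.77. With replicate numbers as a block, the differences were 3.58, 2.28 and -1.87, 1605 features were called in place of 1427, and DME and OSB1 stayed called (limma adjusted p = 0.00435 and 0.0182); a number with WT at 0 adds nothing to that fit for the gene. Features called higher numbered 751, against 1747 without scaling and 1664 with equal sums, and those called lower 676, against 269 and 298. Of the 2 nuclease and repair genes, 2 were called under each alternative except 3 in which OSB1 was lost: without both samples numbered 1, without prors2 sample 6 and without WT sample 2, each leaving 1. Over the omissions of 1 sample, the count ran from 1 to 2. The median-centred counts were 600 higher and 881 lower. What the WT zeros of AT3G15140 and AT3G14890 stand for was not tested.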
